A study of Mus musculus with 18 samples.

Results

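The 40 genes described here encode proteins that copy DNA and supply its building blocks, together with 3 regulators of entry into DNA synthesis. They were taken by symbol from a list of replication and nucleotide synthesis genes that was chosen with earlier results of these data known. All 40 were found among the 23900 genes kept in the gene tables. By role they comprised 13 genes of helicase loading and firing, 9 of the polymerases and primase, 8 of the clamp, its loader and the single-strand binding protein, 2 of Okazaki fragment joining, 5 of nucleotide synthesis and 3 G1/S regulators. Each of them passed the filter on low counts in all comparisons, so none was left out of a test.

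Chromosomes are copied from many origins, where the origin recognition complex, with CDC6 and CDT1, loads the MCM helicase before DNA synthesis begins. Helicases that fire open the double helix, primase and DNA polymerase alpha lay down primers, and polymerases delta and epsilon extend them while held on the DNA by the sliding clamp PCNA. Deoxynucleotides come from ribonucleotide reductase and thymidylate synthase, and many genes of this machinery are transcribed at the G1/S boundary under E2F factors, so in growing tissue such as the limb bud their RNA is commonly read with the share of cells in the cycle.

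RNA was sequenced from Pitx1 knockout and wild-type mouse embryos of strain C57BL/6 at embryonic stages E9.5, E11.5 and E12.5 (days after conception), with 3 libraries in each of the 6 groups and 18 in all. PITX1 is the homeodomain transcription factor that distinguishes hindlimb from forelimb, and the study asked what its loss changes as cartilage and muscle form. At E9.5 the sample was the field of the future hindlimb together with trunk tissue beside it, and at the later stages it was the hindlimb, so a difference between E11.5 and E9.5 is also one of dissection. The labels say neither which part of Pitx1 the allele lacks nor whether replicates came from separate embryos, so p-values measure the spread between these libraries, which may be technical.

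E2F sites are the regulatory sequence best known for this family, and 4 promoter stretches that hold one are shown here. RefSeq (GRCm38.p6) gave a promoter of 250 bases before to 50 after a start for 33 of the 40 genes and for 27025 genes in all. An E2F motif, spelled TTTCGCGC, TTTGGCGC or TTTCCCGC on either strand, stood in 12 of the 33 (36.4%), against 2.12% of all genes with a promoter. The 12 were Cdc6, Cdt1, Mcm3, Mcm5, Mcm6, Mcm7, Pola1, Pold1, Pold3, Pole2, Rfc3 and Lig1. A CCAAT box, CCAAT on either strand, stood in 18 of the 33 (54.5%), against 41.1% of all genes, and the cell-cycle element CHR, spelled TTTGAA on either strand, in 3 (9.1%), against 20.2%. No E2F spelling contains CCAAT or TTTGAA, E2F matches on opposite strands can overlap, and a match describes the sequence only. Each stretch of 60 bases lies upstream of the start, reads 5′ to 3′ on the strand of its gene and has the E2F matches in capitals, in Mcm5 and Mcm6 as 1 run of overlapping matches. Pola1, one of the genes that differed between genotypes, lies at chrX:93632260-93632319 on the minus strand, Cdc6 at chr11:98907987-98908046 on the plus strand, Mcm5 at chr8:75109330-75109389 on the plus strand and Mcm6 at chr1:128359782-128359841 on the minus strand.
Pola1: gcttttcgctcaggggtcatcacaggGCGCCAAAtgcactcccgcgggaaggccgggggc
Cdc6: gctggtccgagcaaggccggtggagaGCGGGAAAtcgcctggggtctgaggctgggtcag
Mcm5: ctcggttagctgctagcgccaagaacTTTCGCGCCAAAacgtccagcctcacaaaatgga
Mcm6: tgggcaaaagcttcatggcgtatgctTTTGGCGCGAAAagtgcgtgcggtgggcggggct

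Libraries held 14312425 to 60465013 fragments, and depth differed with genotype. At E9.5 totals were 14312425 to 18490604 in knockout libraries and 20603210 to 39882668 in wild-type libraries. At E11.5 they were 44827257 to 60465013 in knockout libraries and 38644550 to 40832729 in wild-type libraries, and at E12.5 the ranges overlapped; the part of depth in the results was not tested. Pitx1, the gene knocked out, had 24.1, 25.05 and 18.4 RPKM (fragments per kilobase and per library size, in the authors' scaling) in knockout libraries at E9.5, against 48.5, 57.1 and 58.8 RPKM in the wild type. At E11.5 it had 23.2, 17.3 and 20.01 RPKM in knockout libraries, against 138.5, 111.6 and 109.0 RPKM in the wild type, and at E12.5 10.8, 13.4 and 11.6 RPKM, against 114.2, 112.5 and 44.6 RPKM. Knockout and wild-type libraries did not overlap at any stage. The test at E12.5 did not call even Pitx1 (adjusted p = 0.125, edgeR; 3.09e-06 without wild-type replicate 3). One library stood apart: wild-type replicate 3 at E12.5 had the lowest Pitx1 of its group, and all 40 replication genes lay below their wild-type mean in it. Limb mesenchyme markers were present in every group, with summed levels from 357.8 to 480.1 RPKM at E9.5 and from 815.7 to 1038.8 RPKM at the later stages over 10 genes, none of them at 0 throughout a group.

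Per kilobase, Rrm2, Mcm6 and Rrm1 gave the most RNA of the 40 genes in wild-type hindlimb at E11.5, and Cdc6, Pole and E2f1 the least. In wild-type hindlimb at E11.5 the order ran from Rrm2, the regulated subunit of ribonucleotide reductase, at 153.7 ± 17.8 RPKM (SD, n = 3) down to Cdc6, the helicase loader, at 14.7 ± 1.34 RPKM. Mcm6, Mcm5, Mcm4, Mcm2 and Mcm3, which with Mcm7 form the ring of the replicative helicase, lay between 133.5 and 118.3 RPKM, each differing from the next by less than the SD of its libraries, and Mcm7 lay lower, at 96.5 ± 4.95 RPKM. Rrm1, the large reductase subunit, had 128.2 ± 9.79 RPKM and Pcna 116.7 ± 15.7 RPKM. At the low end stood Mcm10, the loader of polymerase alpha, at 27.4 ± 2.12 RPKM and Pole, the catalytic subunit of polymerase epsilon, at 15.8 ± 1.196 RPKM. Pola1, the catalytic subunit of polymerase alpha, had 19.8 ± 1.51 RPKM, close to the cyclin gene Ccne2 with 18.8 ± 2.89 RPKM and the transcription factor gene E2f1 with 18.5 ± 0.789 RPKM.

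At E9.5 the replication genes of knockout and wild-type samples were close. No gene of the 40 passed in either direction (edgeR, Benjamini-Hochberg over 13785 genes, threshold 0.05), against 0.0218% of all genes tested. An unadjusted p under 0.05 was found for 1 gene, against 4.11% of all genes, while DESeq2 gave 0 calls. Fold changes were above 0 for 14 of the 40, against 48.2% of all genes, and the median log2 fold change was -0.02, against -0.01 over all genes. The gene with the unadjusted p was Ccne2, cyclin E2, which drives CDK2 at entry into S phase. Its 3 knockout libraries had 17.6, 20.96 and 21.9 RPKM, against 26.4, 24.2 and 25.4 RPKM in the wild type. All 3 knockout values lay below all wild-type values, and the log2 fold change of -0.34 ± 0.10 (SE) did not pass (adjusted p = 0.999, edgeR). Mcm4 was the other gene whose libraries did not overlap, also with knockout values below, so 2 of 40 lay wholly below, against 4.58% of all genes, and 0 wholly above, against 4.71%. The rest lay between -0.19 for Ccne1, the other cyclin E gene, and 0.19 for E2f1. Red blood cell markers lay higher in knockout samples for 11 of 11 tested genes (summed 22744.6 to 31483.0 RPKM, against 14123.2 to 25746.2 RPKM in the wild type), and their part in these values was not tested.

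At E11.5, 38 of the 40 genes had fold changes above 0 and 3 rose in the knockout hindlimb: Dut, Prim1 and Pola1. That count stands against 0.933% of 14582 genes called higher (edgeR), and none of the 40 was called lower, against 1.01%. The median log2 fold change of the 40 was 0.20, against -0.01 over all genes, of which 48.0% lay above 0. An unadjusted p under 0.05 was found for 23 of the 40, against 22.2% of all genes. In bulk tissue a change in the share of dividing cells and a change in RNA per cell cannot be told apart.

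Dut encodes dUTPase, which keeps uracil out of DNA by destroying dUTP and yields the precursor of thymidine nucleotides. Its RNA measured 78.5, 89.7 and 91.4 RPKM in knockout libraries, against 55.03, 57.2 and 62.5 RPKM in the wild type. Every knockout library lay above every wild-type library, and the gene rose by a log2 fold change of 0.57 ± 0.083 (SE), or 48.3% (adjusted p = 0.017, edgeR). At E9.5 and E12.5 the genotypes overlapped for Dut, with 97.6 to 113.0 RPKM in knockout and 108.1 to 114.2 RPKM in wild-type libraries at E9.5, and 38.4 to 42.6 RPKM in knockout and 25.6 to 44.04 RPKM in wild-type libraries at E12.5.

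Prim1 and Pola1 act in the same enzyme, since PRIM1 is the catalytic subunit of primase and POLA1 that of the polymerase alpha it is bound to. Prim1 measured 79.4, 84.5 and 84.2 RPKM in knockout libraries, against 55.1, 60.97 and 67.9 RPKM in the wild type. It rose by 0.43 ± 0.087 on the log2 scale, or 34.9% (adjusted p = 0.0396, edgeR). For Pola1 the knockout libraries had 25.3, 25.2 and 25.0 RPKM, against 18.5, 19.4 and 21.4 RPKM in the wild type, a rise of 0.35 ± 0.076, or 27.4% (adjusted p = 0.0494, edgeR). Neither gene's libraries overlapped between genotypes. The other subunits of the complex, Pola2 and Prim2, lay at log2 fold changes of 0.19 ± 0.079 and 0.25 ± 0.095 and did not pass (adjusted p = 0.19 and 0.162, edgeR). Of the 3 genes that rose, Pola1 held an E2F spelling in its promoter and Dut and Prim1 held none, which says only that these letters were not in their windows.

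**Figure D1:**
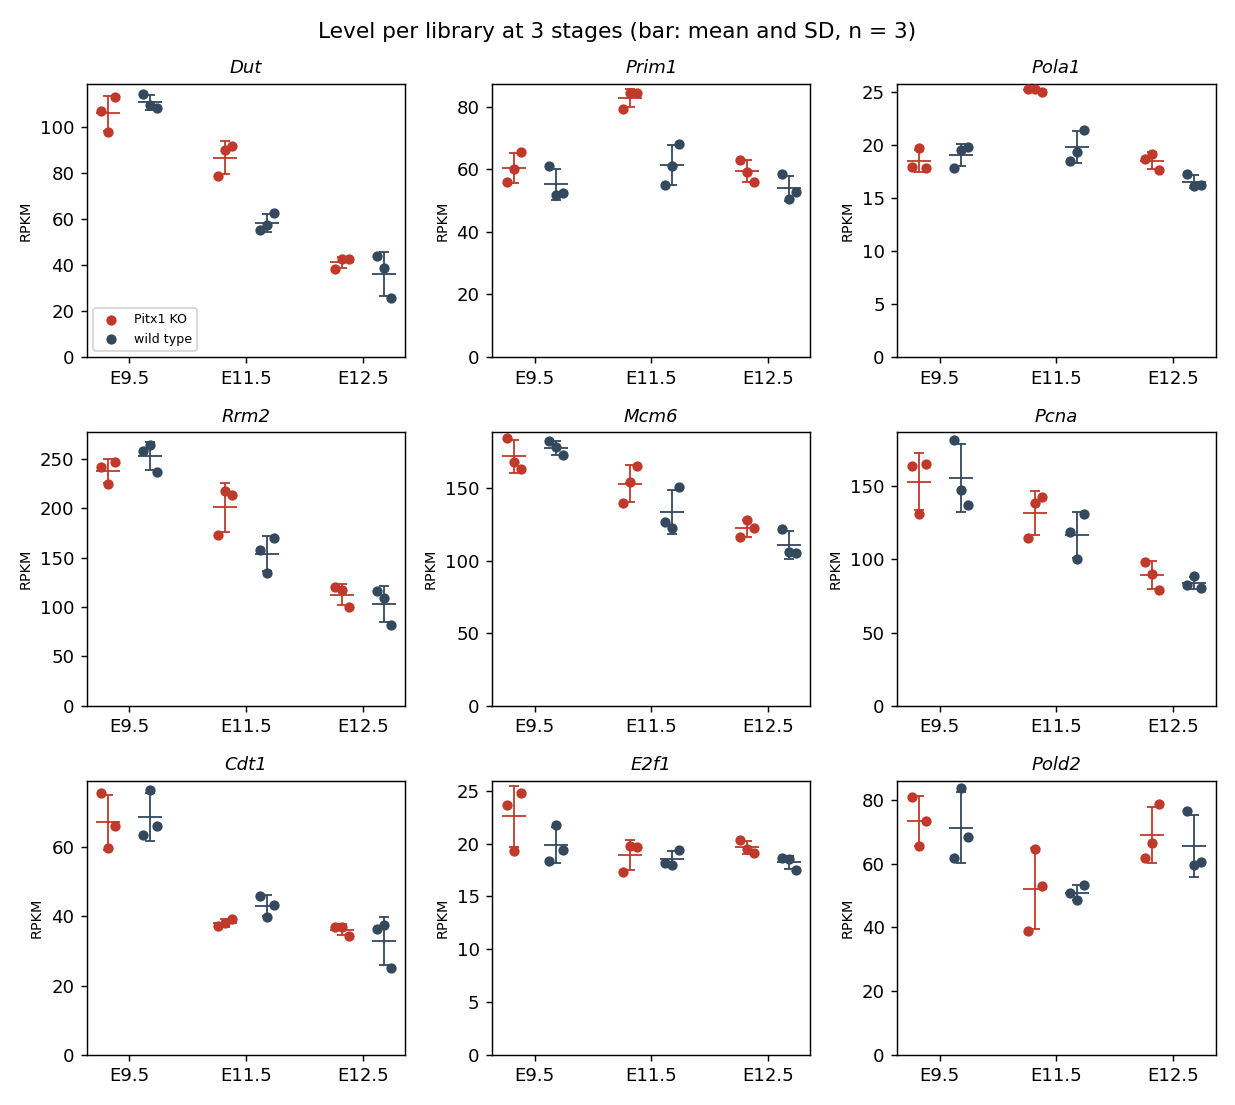
Level in RPKM (y axes, from 0) of 9 replication genes in each library at each of 3 stages, with knockout libraries in red to the left of wild-type libraries in blue; crossbars give the mean and SD of 3 libraries. Tables were normalised separately by stage, so heights compare within a stage; at E11.5 the 3 knockout libraries of Dut (78.5 to 91.4), Prim1 (79.4 to 84.5) and Pola1 (25.0 to 25.3) lie above all wild-type libraries.

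None of the 13 genes of helicase loading and firing passed at E11.5, where their median log2 fold change was 0.18 and 12 lay above 0. Cdc6 lay highest, with 16.3, 21.03 and 20.02 RPKM in knockout libraries, against 13.96, 13.9 and 16.3 RPKM in the wild type, so that knockout replicate 1 equalled wild-type replicate 3 (log2 fold change 0.38 ± 0.11 SE, adjusted p = 0.0901, edgeR). Mcm10 followed at 0.33 ± 0.099 (adjusted p = 0.101, edgeR), and Orc2 and Orc6, subunits of the origin recognition complex, at 0.27 ± 0.099 and 0.25 ± 0.084. The helicase subunits Mcm2 to Mcm7 lay between 0.04 for Mcm7 and 0.20 for Mcm6, and the firing factors Gins1 and Gins2 at 0.17 and 0.16. Cdt1, which brings the helicase to the origin with Cdc6, lay the other way. It had 37.1, 38.0 and 39.4 RPKM in knockout libraries, against 46.0, 39.9 and 43.3 RPKM in the wild type. All knockout values of Cdt1 were below all wild-type values, and the log2 fold change of -0.17 ± 0.077 did not pass (adjusted p = 0.222, edgeR).

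Subunits of the elongating polymerases were mixed at E11.5. Pold3, an accessory subunit of polymerase delta, lay at 0.20 ± 0.075 on the log2 scale, while its catalytic subunit Pold1 lay at -0.06 ± 0.11 and Pold2 at 0.04 ± 0.16 (adjusted p from 0.163 to 0.914, edgeR). For polymerase epsilon, Pole2 lay at 0.18 ± 0.098 and Pole at 0.03 ± 0.089. All 8 genes of the clamp, loader and single-strand binding protein lay above 0, with a median of 0.23. Among them were Rfc3, a loader subunit, at 0.31 ± 0.074 (adjusted p = 0.0608, edgeR), Rpa2 at 0.31 ± 0.11, Rfc5 at 0.28 ± 0.095, Rpa1 at 0.25 ± 0.078 and Pcna at 0.17 ± 0.11. The 8 ran from 0.03 for Rfc2 to 0.31 for Rpa2, with Rfc1 and Rfc4 between these. Fen1, the flap nuclease, and Lig1, the ligase that seals Okazaki fragments, lay at 0.25 ± 0.12 and 0.17 ± 0.066. None of these genes passed.

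Nucleotide synthesis genes had the highest median of the 6 roles at E11.5, a log2 fold change of 0.30, with all 5 above 0. Rrm2 measured 172.4, 216.8 and 212.9 RPKM in knockout libraries, against 157.1, 134.6 and 169.6 RPKM in the wild type. The libraries did not overlap, but knockout replicate 1 stood close to wild-type replicate 3, and the log2 fold change of 0.39 ± 0.11 did not pass (adjusted p = 0.0914, edgeR). Rrm1 lay at 0.30 ± 0.086 (adjusted p = 0.0869, edgeR), Tk1, the thymidine kinase of the salvage route, at 0.23 ± 0.086 and Tyms, thymidylate synthase, at 0.20 ± 0.091. Of the 6 roles, the G1/S regulators had the median nearest to 0. E2f1 lay at 0.03 ± 0.084, Ccne1 at 0.07 ± 0.15 and Ccne2 at 0.22 ± 0.11. Counting all 40, knockout libraries lay wholly above wild-type libraries for 15, against 13.7% of all genes, and wholly below for Cdt1 only, against 14.0%.

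**Figure D2:**
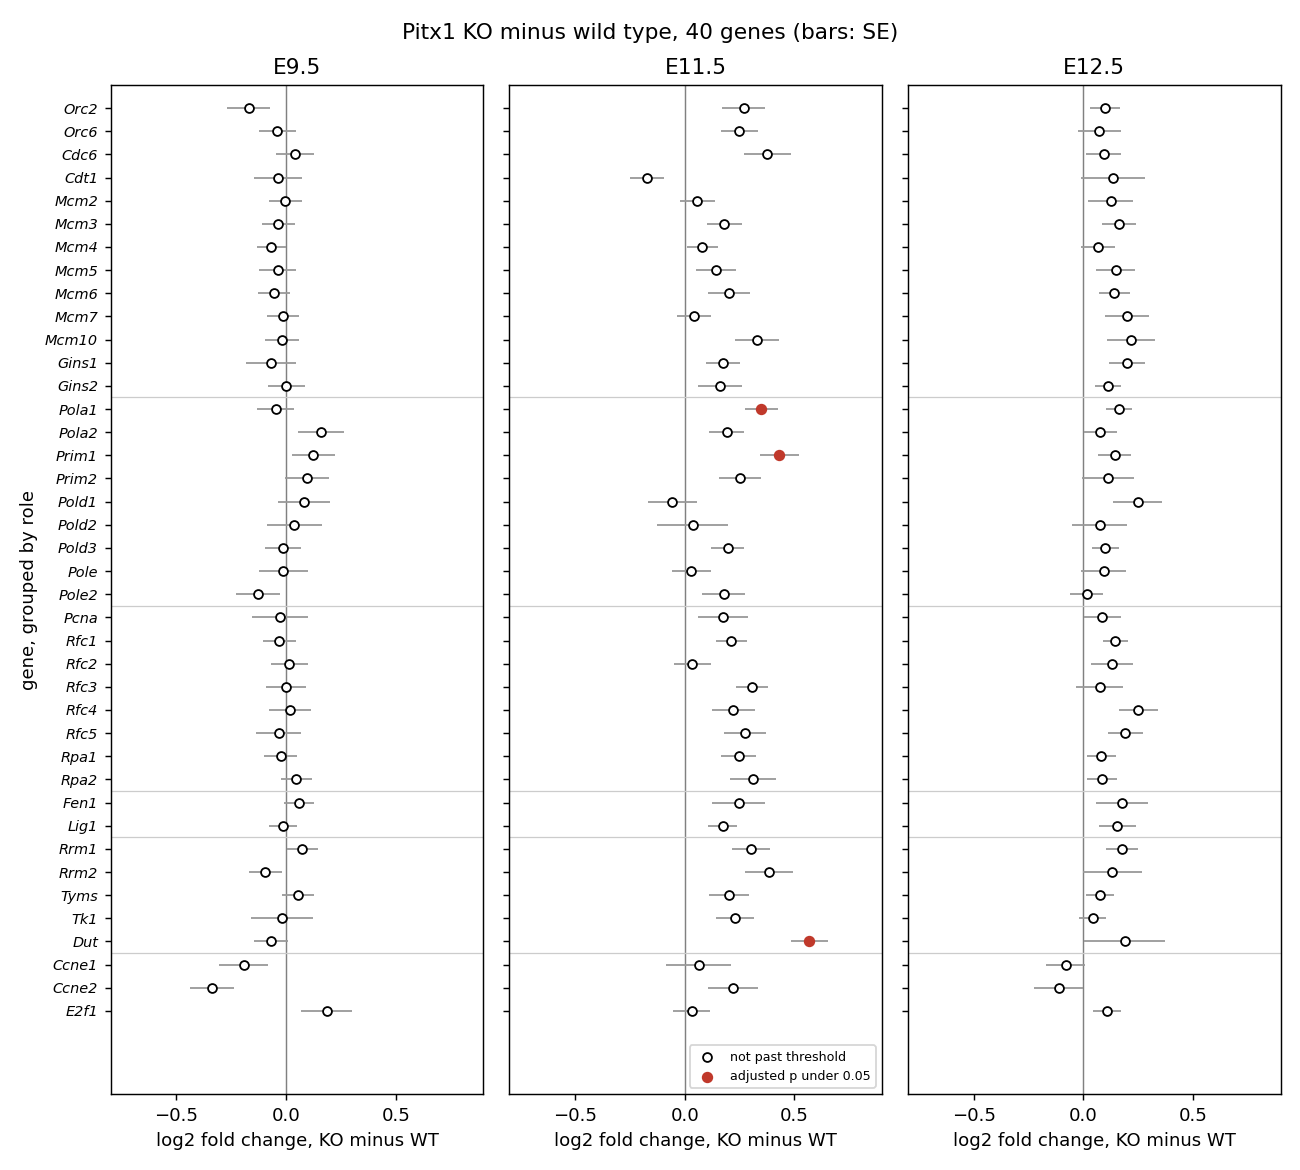
Log2 fold change (x axis, knockout minus wild type) with its SE for each of the 40 genes, ordered by role down the page, in 1 panel per stage; filled points passed the edgeR threshold of 0.05. At E11.5 the points lie between -0.17 for Cdt1 and 0.57 for Dut and 3 are filled, while none is filled at E9.5 or E12.5.

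The calls at E11.5 rested on single libraries, while the direction did not. Leaving out each of the 6 libraries in turn gave 0 to 6 called genes: for the knockout, 6 when replicate 1 was dropped, 1 for replicate 2 and 0 for replicate 3, and for the wild type 0, 1 and 5. Dut passed in 4 of the 6 fits (adjusted p from 0.00967 to 0.145, edgeR), Prim1 in 2 (0.0174 to 0.199) and Pola1 in 1 (0.0239 to 0.215). The number of the 40 above 0 was 35 to 39 in these fits and the median 0.16 to 0.27. The share of all genes called in each of these fits was not counted. DESeq2 called 9 genes higher, against 4.53% of all genes, adding Cdc6, Mcm10, Rfc3, Rpa1, Rrm1 and Rrm2, and limma on log2(RPKM + 1) called Dut alone. Dut alone also passed when replicates of equal number were paired as blocks, which no label calls for. Knockout replicate 1 had the lowest replication level of its group, with a median log2 ratio to the wild-type mean of 0.08 over the 40 genes, against 0.30 and 0.26 in the other knockout libraries. Wild-type replicate 3 had the highest of its group, 0.09 against 0.00 and -0.08.

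Further genes of the same machinery lay higher at E11.5 as well. Of 16 other genes of origin licensing and firing, all had fold changes above 0, and Gmnn, the inhibitor of CDT1, rose by 0.51 ± 0.097 on the log2 scale and Dbf4, the activator of CDC7 kinase, by 0.39 ± 0.084. All 23 other fork genes lay above 0, and the topoisomerase genes Top1 and Top2a rose by 0.42 ± 0.088 and 0.37 ± 0.076 (adjusted p = 0.0452 and 0.0408, edgeR). Of 30 other nucleotide synthesis genes 26 lay above 0, yet the one that passed fell: Dctd, the dCMP deaminase that feeds thymidylate synthesis, with 22.4 ± 2.37 RPKM in knockout and 36.8 ± 4.57 RPKM in wild-type libraries (log2 fold change -0.70 ± 0.11, adjusted p = 0.0224, edgeR). Of 16 S-phase chromatin and repair genes 4 rose, among them Nasp, a histone chaperone, by 0.43 ± 0.077. Over all genes, 0.933% were called higher and 1.01% lower.

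Mitosis genes, which act later in the cycle, had a larger median than the 40 replication genes at E11.5, 0.34 on the log2 scale. Against 0.933% of all genes called higher, 9 of 20 mitosis genes rose. They included Mad2l1 of the spindle checkpoint, which rose by 0.48 ± 0.099, the kinetochore gene Cenpf by 0.47 ± 0.077, cyclin B1 (Ccnb1) by 0.47 ± 0.084 and Nusap1 by 0.45 ± 0.071. Without each library in turn the count was 0 to 13 for mitosis genes and 0 to 8 for S-phase chromatin genes. The count over all genes in those fits was not taken. Of 27 other G1/S regulators tested, none passed, with a median of 0.07. An unadjusted p under 0.05 (edgeR) was found for 4 of them, against 22.2% of all genes. The difference between these lists was not tested.

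Markers of other cell types differed with genotype at E11.5, where 1.01% of all genes were called lower. Summed muscle markers were 18.6 to 31.8 RPKM in knockout and 55.2 to 169.1 RPKM in wild-type libraries, with 12 of 12 genes below 0 and 4 called lower. Summed chondrogenic markers were 142.9 to 195.6 RPKM in knockout and 254.7 to 347.2 RPKM in wild-type libraries, with 10 of 11 below 0 and 4 called lower. Macrophage markers lay below 0 for 10 of 10 genes (16.97 to 23.0 RPKM in knockout and 25.3 to 34.1 RPKM in wild-type libraries), and surface ectoderm markers above 0 for 10 of 10. No defining marker of muscle, cartilage or macrophages was at 0 throughout either genotype. Wild-type replicate 3, the wild-type library with the highest replication level, had the least muscle RNA of its group, 55.2 RPKM against 128.7 and 169.1 RPKM. The part of these cell types in the replication gene values was not tested.

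**Figure D3:**
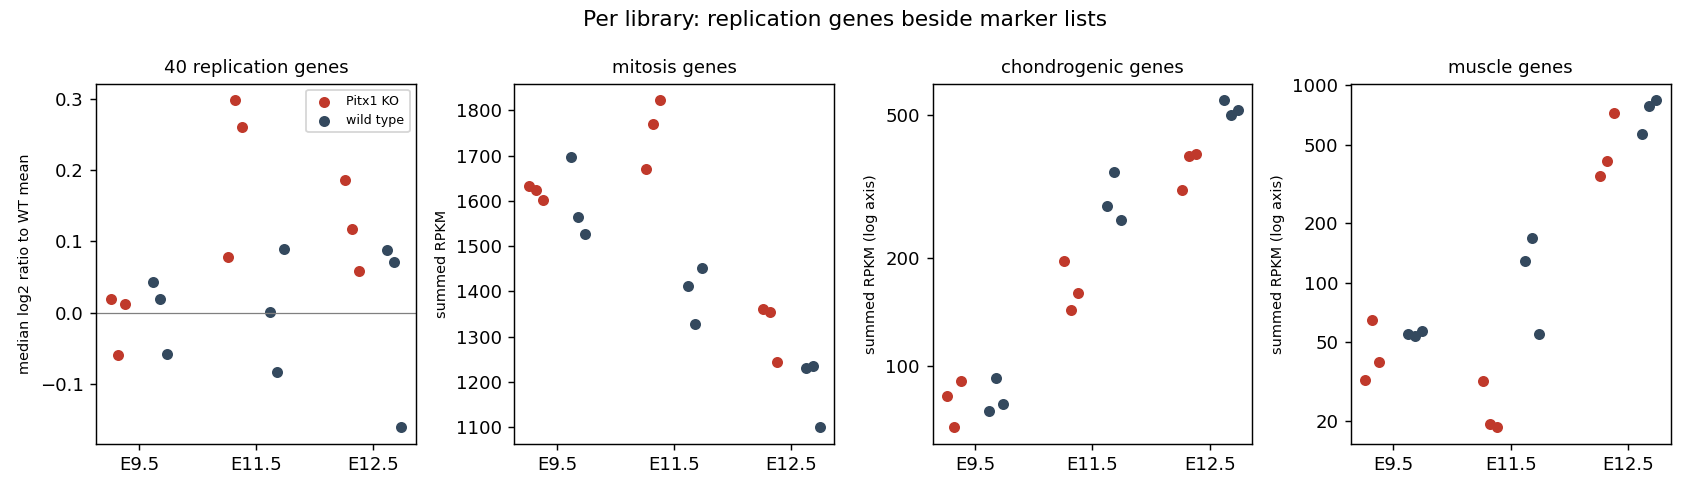
Values per library, with knockout in red and left of wild type in blue at each stage: the median log2 ratio of the 40 genes to the wild-type mean of the stage, the summed RPKM of 20 mitosis genes (axis not from 0), and the summed RPKM of chondrogenic and muscle markers on log axes. At E11.5 knockout libraries lie higher for mitosis genes (1670.3 to 1822.7, against 1326.7 to 1451.5 RPKM) and lower for chondrogenic and muscle markers, and wild-type replicate 3 at E12.5 lies lowest for the 40 genes at -0.16.

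At E12.5 fold changes again lay above 0 for 38 of the 40 genes, and none was called. The stage had a median log2 of 0.12, against 0.00 over 14475 genes, of which 49.9% lay above 0. No gene of the 40 was called by edgeR, against 0.0138% of all genes, an unadjusted p under 0.05 was found for 6 (against 15.1% of all genes), and DESeq2 gave 0 calls. Knockout libraries lay wholly above wild-type libraries for 9 genes, against 11.4% of all genes, and wholly below for 0, against 10.4%. The 9 were Orc2, Gins2, Pola1, Pold1, Pold3, Rfc1, Rfc4, Rrm1 and E2f1.

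Rfc4, another loader subunit, had the highest fold change at E12.5. It measured 89.5, 81.5 and 75.9 RPKM in knockout libraries, against 73.5, 72.1 and 62.0 RPKM in the wild type (log2 fold change 0.25 ± 0.088, adjusted p = 0.274, edgeR). Pold1 measured 33.9, 34.95 and 34.0 RPKM in knockout libraries, against 30.4, 32.8 and 23.5 RPKM in the wild type (0.25 ± 0.11, adjusted p = 0.349, edgeR). Pola1 measured 18.7, 19.2 and 17.6 RPKM, against 17.2, 16.2 and 16.2 RPKM in the wild type (0.16 ± 0.059, adjusted p = 0.283, edgeR). In Pold1 and Rfc4 the lowest value was that of wild-type replicate 3. Ccne1 and Ccne2 lay below 0, at -0.08 ± 0.089 and -0.11 ± 0.11.

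The E12.5 difference rested in part on wild-type replicate 3. The median log2 ratio of the 40 genes to the wild-type mean was 0.19, 0.12 and 0.06 in knockout libraries and 0.09, 0.07 and -0.16 in wild-type libraries, the last being replicate 3. Without that library the median log2 fold change was 0.05 and 28 of 40 genes lay above 0. It also had the most muscle RNA of the stage, with summed markers of 348.2 to 722.5 RPKM in knockout libraries and 564.5, 789.8 and 843.7 RPKM in wild-type libraries. Chondrogenic markers summed to 308.4 to 390.0 RPKM in knockout and 500.8 to 550.4 RPKM in wild-type libraries. Macrophage markers lay below 0 for 10 of 10 genes, with 33.7 to 43.03 RPKM in knockout and 50.2 to 65.03 RPKM in wild-type libraries, and surface ectoderm markers for 9 of 10, with 248.8 to 298.5 RPKM in knockout and 224.3 to 431.6 RPKM in wild-type libraries. Replicate 3 was the highest wild-type library for both. How far these differences bear on the replication genes was not tested.

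The replication genes fell in both genotypes between E11.5 and E12.5. In knockout hindlimbs 32 of the 40 fell and 0 rose, with 21.1% of 15305 genes called lower and 20.4% higher, and the median log2 fold change was -0.41, against 0.01 over all genes. In wild-type hindlimbs 30 fell and 0 rose, with 16.3% and 17.0% of all genes called, and the median was -0.32, against 0.00. Of these falls 29 were shared, which is 90.6% of those in the knockout and 96.7% of those in the wild type. Since the RPKM of each stage was scaled on its own, values across stages are given as CPM, the fragments relative to a common library total after 1 TMM scaling, which is not per length and compares libraries within a gene.

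Dut fell furthest. Its knockout libraries had 83.0, 92.04 and 91.5 CPM at E12.5, against 179.7, 205.1 and 207.7 CPM at E11.5, a fall of 1.15 ± 0.15 on the log2 scale (log2 fold change -1.15, adjusted p = 0.000246, edgeR). Wild-type libraries had 95.4, 83.4 and 55.5 CPM at E12.5, against 124.9, 130.5 and 141.1 CPM at E11.5 (-0.76 ± 0.15, adjusted p = 0.0034, edgeR). All E12.5 libraries lay below all E11.5 libraries in each genotype, and wild-type replicate 3 was the lowest of the 6 at E12.5.

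Rrm2 fell by 0.92 ± 0.14 in the knockout and by 0.65 ± 0.14 in the wild type. Its E12.5 knockout libraries had 247.9, 242.1 and 207.4 CPM, against 378, 474.2 and 463 CPM at E11.5, and its E12.5 wild-type libraries had 241.2, 226.4 and 169.1 CPM, against 339.5, 293 and 366.7 CPM. Mcm10 fell by 0.75 ± 0.11 in the knockout and by 0.62 ± 0.11 in the wild type, and Pcna by 0.64 ± 0.11 and by 0.54 ± 0.11. Ccne2 fell by 0.85 ± 0.12 in the knockout and by 0.50 ± 0.12 in the wild type. The 6 helicase ring genes fell less, by 0.26 to 0.40 in the knockout and by 0.26 to 0.40 in the wild type.

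A few members did not follow. Pold2 had 90.8, 97.4 and 115.6 CPM in E12.5 knockout libraries, against 60.7, 100.1 and 81.95 CPM at E11.5, and 112.6, 87.4 and 88.6 CPM in E12.5 wild-type libraries, against 77.8, 75.2 and 81.8 CPM. The wild-type stages did not overlap for Pold2 and the knockout stages did, and neither difference passed (log2 fold change 0.32 ± 0.16 in the knockout and 0.30 ± 0.16 in the wild type, adjusted p = 0.129 and 0.179, edgeR). Gins2 lay at -0.06 ± 0.084 in the knockout and -0.01 ± 0.084 in the wild type, E2f1 at -0.03 ± 0.070 and -0.09 ± 0.070, Tk1 at -0.13 ± 0.073 and 0.07 ± 0.073, Prim2 at -0.26 ± 0.11 and -0.11 ± 0.11, Rfc2 at -0.13 ± 0.093 and -0.22 ± 0.093, and Pold1 at -0.04 ± 0.12 and -0.33 ± 0.12 (adjusted p = 0.841 and 0.0573, edgeR), none of them past the threshold in either genotype. Cdt1 was called in wild-type hindlimbs (-0.46 ± 0.12, adjusted p = 0.012, edgeR) and lay at -0.16 ± 0.12 in the knockout, and the difference between these did not pass (adjusted p = 0.55, edgeR). Rpa1, Rpa2 and Lig1 were called lower in the knockout, against -0.17, -0.24 and -0.18 in the wild type, which did not pass.

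The count in the wild type depended on replicate 3 of each stage. Without wild-type replicate 3 of E11.5, 15 of the 40 genes fell, and without that of E12.5, 18, with medians of -0.27 and -0.23. Dropping a library left 28 to 34 falls among knockout hindlimbs, and Pold2 alone was called higher in 1 of those fits. No share of all genes called was counted for the fits without a library. Over the same interval muscle and cartilage markers rose, 11 of 12 muscle genes in the knockout and 11 of 12 in the wild type, and 9 and 7 of 11 chondrogenic genes. Summed muscle markers were 348.2 to 722.5 RPKM in E12.5 and 18.6 to 31.8 RPKM in E11.5 knockout libraries, on the stages' separate scales. Other genes of the pathway fell too: 15 of 16 for origin licensing and firing in knockout hindlimbs and 13 in wild-type hindlimbs, 20 and 14 of 23 at the fork, 21 and 19 of 30 in nucleotide synthesis, and 19 and 16 of 20 for mitosis. The part of tissue makeup in these falls was not tested.

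The difference between genotypes in the change from E11.5 to E12.5 was tested directly, as the knockout effect at E12.5 minus that at E11.5. None of the 40 passed (2 with an unadjusted p under 0.05, edgeR; DESeq2 called 0), where 0.00653% of all genes passed and 10.3% had an unadjusted p under 0.05. The median difference was -0.10 on the log2 scale, with 10 of 40 above 0, against 48.7% of all genes. Prim1 had -0.30 ± 0.12 (adjusted p = 0.428, edgeR) and Pola1 -0.20 ± 0.091 (adjusted p = 0.481, edgeR). A greater fall in the knockout than in the wild type was not shown for any single gene.

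**Figure D4:**
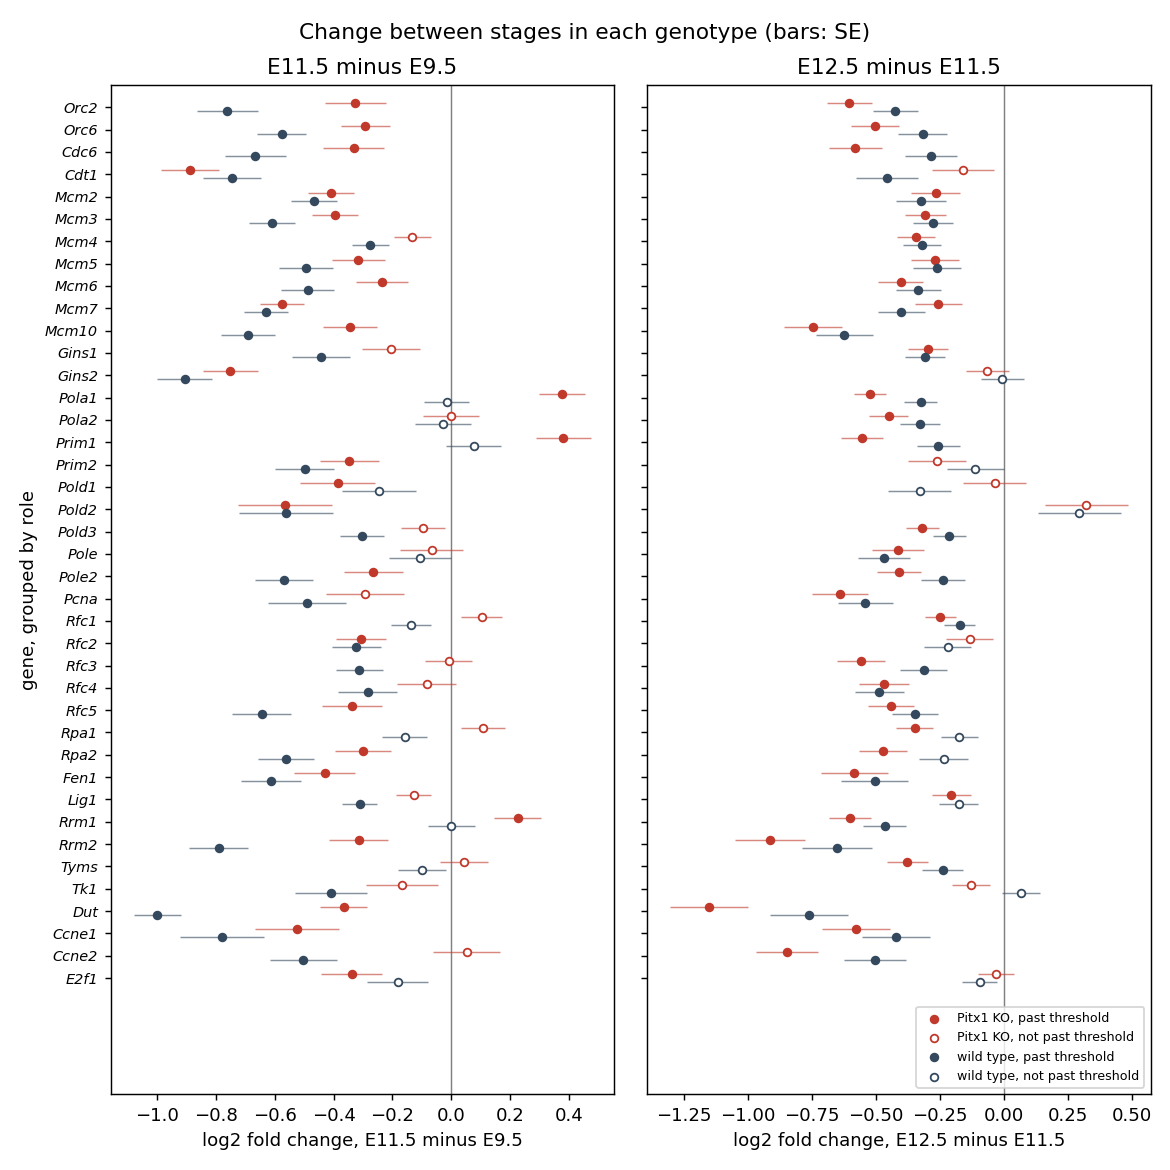
Log2 fold change (x axes) with its SE between successive stages for each of the 40 genes, by role down the page, with the knockout in red drawn above the wild type in blue; filled points passed the edgeR threshold of 0.05. From E11.5 to E12.5 nearly all points lie left of 0 in both genotypes (Pold2 lies right of it), while from E9.5 to E11.5 the knockout points of Pola1, Prim1 and Rrm1 are filled to the right.

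Levels at E11.5 were mostly below those at E9.5, where the tissue also differed. In the knockout 23 of the 40 genes fell and 3 rose, with 25.5% of 15353 genes called lower and 25.0% higher, and the median log2 fold change was -0.30, against 0.01 over all genes. In the wild type 30 fell and 0 rose, with 27.6% and 28.3% of all genes called, and the median was -0.49, against 0.01. Of these falls 21 were shared, 91.3% of those in the knockout and 70.0% of those in the wild type. Of the 13 helicase loading and firing genes 11 fell in the knockout, where Mcm4 and Gins1 did not pass, and 13 in the wild type. Gins2 fell by 0.75 ± 0.093 in the knockout and by 0.91 ± 0.093 in the wild type, and Cdt1 by 0.89 ± 0.099 and by 0.75 ± 0.098. Pold1 and E2f1 were called lower in the knockout and not in the wild type, while Mcm4, Gins1, Pold3, Pcna, Rfc3, Rfc4, Lig1, Tk1 and Ccne2 did not pass in the knockout and were called lower in the wild type. Among other pathway genes 20 of 30 for nucleotide synthesis fell in the knockout and 25 in the wild type, and of 20 mitosis genes 10 rose and 3 fell in the knockout, against 4 and 9 in the wild type.

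The polymerase alpha and primase catalytic subunits and Rrm1 rose in the knockout from E9.5 to E11.5. Pola1 had 137.5, 137.4 and 135.4 CPM in E11.5 knockout libraries, against 102.6, 112.1 and 101.3 CPM at E9.5 (log2 fold change 0.38 ± 0.077, adjusted p = 0.00104, edgeR), and 100.3, 104.7 and 116.7 CPM in E11.5 wild-type libraries, against 101.7, 111.1 and 112.6 CPM (-0.02 ± 0.077). Prim1 had 111.3, 118.4 and 117.6 CPM in E11.5 knockout libraries, against 82.5, 88.3 and 95.98 CPM at E9.5 (0.38 ± 0.094, adjusted p = 0.00404, edgeR), and in the wild type it lay at 0.08 ± 0.094. Rrm1 lay at 0.23 ± 0.080 in the knockout (adjusted p = 0.0289, edgeR) and at 0.00 ± 0.080 in the wild type. Pola1 and Prim1 stayed called in all 12 fits that left out a library, while Rrm1 lost its call without knockout replicate 1 or 2 of E9.5 and without knockout replicate 2 or 3 of E11.5. For Pola1 and Prim1 all E11.5 knockout libraries lay above all E9.5 knockout libraries, while the wild-type stages overlapped for both.

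Dut fell by 0.37 ± 0.080 on the log2 scale in the knockout and by 1.0 ± 0.081 in the wild type between E9.5 and E11.5. It had 171.1, 195.7 and 198.4 CPM in E11.5 knockout libraries, against 245.9, 223.6 and 258.5 CPM at E9.5, and 120.2, 124.3 and 136.1 CPM in E11.5 wild-type libraries, against 262, 250.7 and 248.3 CPM. The stages did not overlap in either genotype. Tested directly, the knockout effect at E11.5 minus that at E9.5 had a median of 0.22 over the 40 genes, with 36 above 0 (against 47.9% of all genes), and none passed with edgeR (14 with an unadjusted p under 0.05, against 15.2% of all genes; 0.0261% of all genes passed). DESeq2 called 2 higher, Dut and Pola1, against 1.34% of all genes. The difference for Dut was 0.63 ± 0.11 (adjusted p = 0.101, edgeR), and it passed in 1 of 12 fits that left out a library. For Pola1 it was 0.39 ± 0.11 and for Rrm2 0.48 ± 0.14 (adjusted p = 0.155 and 0.163, edgeR).

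The count in the knockout between E9.5 and E11.5 also rested on single libraries. Without knockout replicate 1 of E11.5 there were 11 falls and 3 rises, and without knockout replicate 1 of E9.5 there were 15 falls and 2 rises. Among wild-type samples 28 to 30 genes fell without each library in turn. How many of all genes were called in these fits was not counted. Markers moved over this interval too, in both directions. With no library left out, 25.0% of all genes were called higher and 25.5% lower in the knockout. The wild type had 28.3% and 27.6%. Macrophage genes were called higher for 8 of 10 in the knockout and 10 of 10 in the wild type. Chondrogenic genes were called higher for 5 and 9 of 11, and 1 was called lower in each. Endothelial genes were called lower for 9 of 10 in each genotype. Neural and neural crest genes were called lower for 7 and 6 of 10, and none of either list was called higher. Somite genes were called lower for 5 of 10 in each genotype, with 2 higher in the knockout and 3 in the wild type. Of 12 muscle genes 4 were called higher and 4 lower in the knockout, against 7 and 0 in the wild type. Surface ectoderm genes were called higher for 5 of 10 in each genotype, with 2 lower in the knockout and 3 in the wild type. The part of these cells was not tested.

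Across both intervals 16 genes fell at each step in the knockout and 23 in the wild type, and 15 did so in all 4 comparisons. These 15 were Orc2, Orc6, Cdc6, Mcm2, Mcm3, Mcm5, Mcm6, Mcm7, Mcm10, Pole2, Rfc5, Fen1, Rrm2, Dut and Ccne1. Each of the 40 genes was called lower in at least 1 of the 4 comparisons. Single comparisons called 16.3% to 27.6% of all genes lower. The share of all genes lower at both steps, or in any of the 4, was not counted. The mean log2 CPM of the 40, with 1 scaling of all 18 libraries, stepped down over the 3 stages, being 7.41, 7.18 and 6.79 in the knockout and 7.42, 6.98 and 6.66 in the wild type.

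The members varied together from library to library. Over the 18 libraries the correlation of each gene's log2 CPM with the mean of the other 39 had a median of 0.95, and 32 genes lay above 0.8. The 2 genes under 0.5 were Pold2 (0.38) and Prim1 (0.44), and Pola1 stood at 0.56. With each group's mean subtracted the median was 0.73, led by Rrm2 (0.98) and Fen1 (0.94), while Pole (0.12) and Pola1 (0.17) followed the others least. These values describe libraries that share stage, depth and scaling. No other genes were correlated in this way, so whether the 40 vary together more than others was not tested. For 12 of the 40 genes the annotation (GENCODE M21) places exons over those of another protein-coding gene, 11 of them on the opposite strand, and the strand setting of the counting is not given in the sources used here. The values of Orc2, Orc6, Mcm7, Gins2, Pole2, Rfc2, Rfc4, Rfc5, Fen1, Lig1, Tk1 and Ccne2 are therefore uncertain, as are those of Pcna and Tyms, which have annotated pseudogenes. Dut, Prim1 and Pola1 are not among the 12 with shared exons, and pseudogenes were not searched for across the 40.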

How the data were processed

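Stranded mRNA libraries of 18 samples, made from total RNA per the labels' protocols, were analysed from gene tables, 1 per stage. FastQC, TopHat2, Cuffdiff and build mm9 are named in the submitters' processing notes, without versions; the annotation and strand setting used are not stated there. The deposited raw fragments are estimated counts per gene and library, and the deposited RPKM values are in the authors' normalization, made separately per table. Scaled fragments, a deposited signal, entered no test. Replicates numbered from 0 in the tables were taken as replicates 1 to 3. Of 23929 gene lines per table, 29 were left out and 23900 kept: 25 genes whose estimate had failed or been skipped in a library, and 2 names that each stood on 2 lines. Fragments were rounded, 1.79% of all values not being whole.

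Within a stage, knockout and wild type were compared by edgeR 4.0.16 under R 4.3.3 (TMM, filterByExpr, robust quasi-likelihood F test, Benjamini-Hochberg over all genes tested, threshold 0.05). Stages, and the difference of knockout effects between stages, were compared in fits of 12 libraries with 1 TMM scaling. The SE of a log2 fold change was derived from the F statistic. RPKM was tested only within a stage. Alternatives were RLE size factors, no filter, no robust step, DESeq2 1.42.0, limma 3.58.1 on log2(RPKM + 1) and log2(RPKM + 0.1), a single fit of all 18 libraries, a replicate block and leaving out each library. The fits were also run on simulated counts whose changes were larger than any within-stage knockout effect of the 40 genes. That run does not show how often effects of their size are found. Replicates differed beyond sampling noise in all pairs (chi-square per degree of freedom at least 8.25). All 40 members were accounted for, and of other lists up to 4 genes past the threshold were named. The members and lists were chosen with earlier results of these data known.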

Additional observations from a re-analysis of the deposited data

How the results depend on the processing

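The median fold change of the 40 genes kept its sign in all alternatives run except at E9.5, where it lay above 0, by at most 0.02, without knockout replicate 2 or wild-type replicate 1, and counts of called genes moved. At E11.5, with 3 of 40 genes called, 1 was called with no robust step, 1 with the replicate block, 1 with limma on log2(RPKM + 1) and 1 on log2(RPKM + 0.1), 5 with all 18 libraries in 1 fit and 9 by DESeq2; leaving out each library gave 0 to 6. For the knockout effect at E11.5 minus that at E9.5, with 0 called, DESeq2 called 2 and leaving out each library gave 0 to 1. Leaving out each library gave 28 to 34 calls in knockout hindlimbs and 15 to 31 in wild-type hindlimbs between E11.5 and E12.5, and 14 to 27 and 28 to 30 between E9.5 and E11.5; at E9.5, at E12.5 and for the knockout effect at E12.5 minus that at E11.5 it gave 0. The median fold change without each library ranged from -0.04 to 0.02 at E9.5, from 0.16 to 0.27 at E11.5 and from 0.05 to 0.18 at E12.5. Correlations of deviations ran from -0.39 to 0.23 for replicates of the same number and from -0.36 to 0.46 for those of other numbers. With 3 same-number values a stage, they cannot show whether replicates were paired. With the replicate block 29 genes were called in the knockout and 23 in the wild type between E11.5 and E12.5, and 24 and 30 between E9.5 and E11.5. Shares of all genes called were not counted for the alternatives, apart from the DESeq2 shares given above. Libraries not overlapping at E11.5 were 17 genes on TMM-scaled CPM and 16 on RPKM. Depth was lower in the knockout at E9.5 and higher at E11.5, and with 3 libraries a group 1 library could decide a call. The cause of these shifts was not tested.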
